A study of Arabidopsis thaliana with 12 samples.

Results

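The genes described here are 135 Arabidopsis thaliana nuclear genes whose transcript level stepped up from day 0 to day 2 of synchronous flower induction and again in inflorescences. They come from 33559 gene identifiers in the deposited expression table. They were chosen by the values of 3 of the 4 groups measured. After 1 was added to every value, day 2 had to be at least 1.5 times day 0 and the inflorescence at least 1.5 times day 2. Day 0 had to be above 0 and the inflorescence had to reach 10 FPKM (a fragment count scaled for library size and divided by transcript length, so a level per length). The day 0, day 2 and inflorescence values of these genes are therefore a description of the choice. The rosette leaf is the only group that the choice did not use.

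The study sequenced polyadenylated RNA of 12 samples in the Landsberg erecta (Ler) background, with 3 libraries in each of 4 groups. Rosette leaves came from wild-type plants in flower. Apices came from ap1-1 cal-1 plants carrying 35S::AP1:GR, dissected so that little leaf or pedicel was taken along. They were collected at day 0, before treatment, and at day 2 after 10 µM dexamethasone. Inflorescences were the main inflorescences of wild-type plants, without flowers beyond stage 12. All plants grew in long days. The deposited table holds a single merged value per gene and group, so no value below has a replicate error, the sequencing depth behind it is unknown, and no difference has a replicate check.

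The groups differ in more than time. Day 0 and day 2 share a genotype, but the labels name no mock-treated apices, so dexamethasone and the elapsed days cannot be told apart. The apex line lacks functional AP1 and CAL of its own and makes AP1 from a transgene under the broadly active viral 35S promoter. Between day 2 and the inflorescence, genotype, treatment, stage and tissue all change at once. As a check of the labelled tissues, the meristem gene STM stood at 195 FPKM at day 0, 217 at day 2, 41.2 in inflorescences and 0.159 in leaves, and the photosynthesis gene RCA was highest in leaves, at 3862 FPKM. The leaf marker RBCS1A went the other way, with 8661 FPKM in inflorescences and a listed value of 0 in leaves. Its relatives RBCS1B, RBCS2B and RBCS3B read 1617, 2097 and 3114 FPKM in leaves, against 390, 956 and 2097 in inflorescences. The source of the listed 0 was not tested. In these bulk samples, a larger share of cells of a type and more RNA per cell cannot be told apart.

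APETALA1 (AP1) and CAULIFLOWER (CAL) are MADS-domain transcription factors that give a young lateral meristem its floral identity. Without them the apex piles up inflorescence-like meristems in a cauliflower-like mass. A fusion of AP1 to the hormone-binding domain of the glucocorticoid receptor (GR) enters the nucleus once dexamethasone is given, after which many meristems become flowers together. Flower meristems then switch on the B, C and E class MADS-box genes, which specify petals, stamens and carpels. Later the organs grow, seal their surface with cutin and wax, and differentiate tissues such as the tapetum, the anther layer that feeds the pollen.

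Of the 13224 nuclear genes with day 0 above 0 and an inflorescence level of at least 10 FPKM (the genes eligible by level), 331 met the first step, which is 2.5%. The second step was met by 3123 of them, or 23.6%. Both steps were met by the 135 genes, 1.02% of those eligible, and these made up 40.8% of the 331 that met the first. The first step thus removed most candidates, with 2988 genes missing that step alone and 196 missing the second alone. A further 43 genes missed only the inflorescence minimum and 5 missed only because day 0 was listed at 0.

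The median level of the 135 genes was 2.71 FPKM at day 0, 6.95 FPKM at day 2 and 41.9 FPKM in inflorescences. Day 0 levels ran from 0.0205 FPKM (AT5G50335, an uncharacterised protein) to 269 FPKM (DHAR1, a dehydroascorbate reductase). Inflorescence levels ran from 10.1 FPKM (OLEO4, an oleosin) to 2241 FPKM (AT2G20870, annotated as a cell wall protein precursor). With 1 added to each value, the ratio of day 2 to day 0 had a median of 1.98 and a range of 1.51 to 12.9. The ratio of inflorescence to day 2 had a median of 3.98 and a range of 1.52 to 131. For most of these genes the second step was the larger. The share of the whole log2 rise that was reached by day 2 had a median of 35.0% and passed 50% in 30 genes (22.2%). Many began from a low level, with 34 genes under 1 FPKM at day 0 and 47 at 5 FPKM or more. Adding 1 shrinks the first step of such low genes relative to the second.

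**Figure D1:**
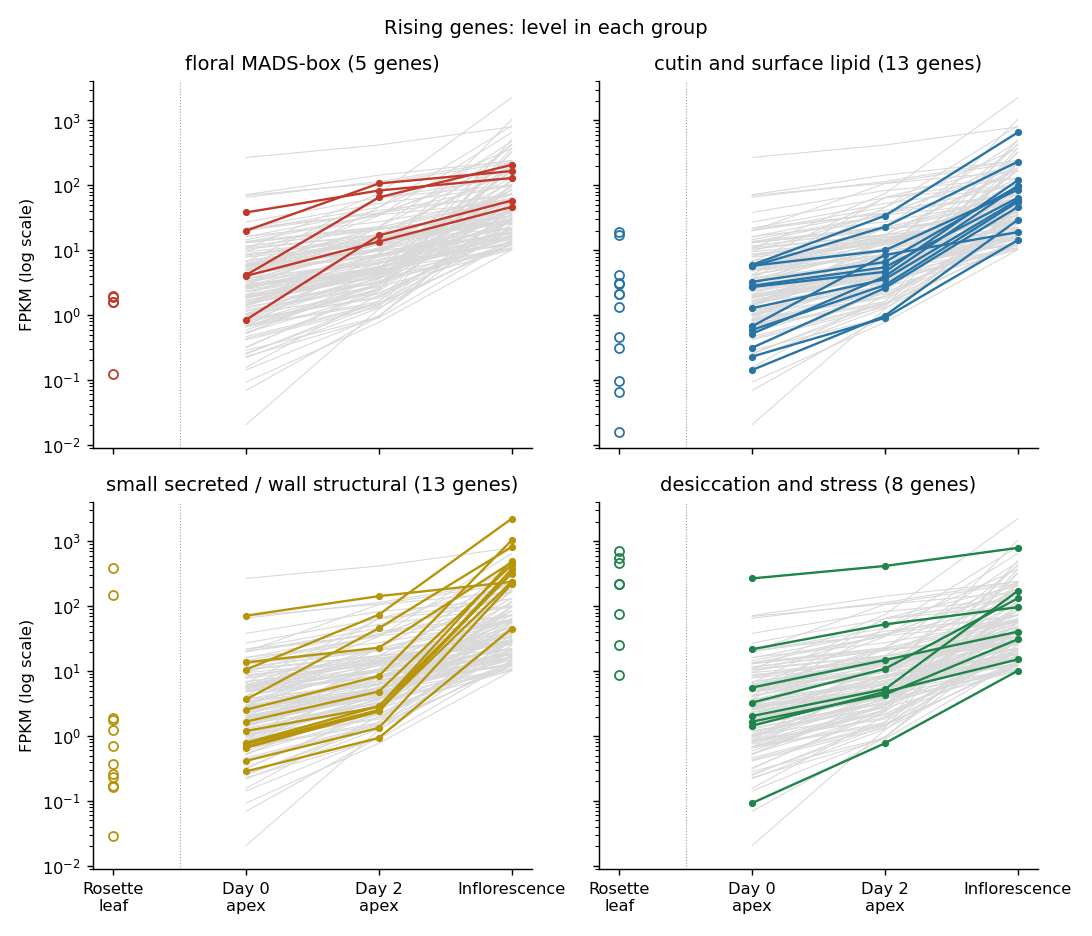
FPKM on a log axis in rosette leaves (open circles) and along day 0 apices, day 2 apices and inflorescences (lines), 1 merged value per gene and group, with all 135 genes in grey and 1 functional group in colour in each of 4 panels. The floral MADS-box lines flatten after day 2 except that of SEP1, most small secreted protein lines steepen after it, and the desiccation and stress genes stand between 8.70 and 709 FPKM in leaves.

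The genes were sorted by their annotated product and known role into 10 groups, after their values had been seen. There were 5 floral MADS-box genes, 14 other transcriptional regulators and 7 genes of auxin and cytokinin action. Metabolic and structural groups comprised 13 genes of cutin and surface lipid, 13 of small secreted and structural wall proteins and 9 of wall enzymes. Smaller groups were 8 genes of desiccation and stress, 4 of transport and 4 of phenylpropanoid synthesis. The other 58 genes had varied or unknown roles.

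The floral MADS-box members were SEP3, PI, AG, SEP1 and SEP2. SEPALLATA proteins (SEP1 to SEP3, the E class) assemble the floral organ complexes, PISTILLATA (PI, the B class) acts in petals and stamens, and AGAMOUS (AG, the C class) acts in stamens and carpels. SEP3 (AT1G24260) stood at 4.14 FPKM at day 0, 65.2 at day 2, 207 in inflorescences and 1.99 in leaves. AG (AT4G18960) stood at 0.849, 16.9, 58.3 and 1.59 FPKM in the same order. These had the 12.9-fold and 9.69-fold first steps, on the scale with 1 added. PI (AT5G20240) went from 19.998 FPKM at day 0 to 107 at day 2 and 166 in the inflorescence, against 0.123 in leaves. SEP2 (AT3G02310) went from 38.3 to 83.2 and 129.6 FPKM, against 1.59 in leaves. SEP1 (AT5G15800) went from 4.02 to 13.6 and 46.6 FPKM, against 1.90 in leaves. PI and SEP2 were thus already well above leaf at day 0. AG was low in both, at 0.849 FPKM at day 0 and 1.59 in leaves. An antisense transcript unit covers 449 exonic bases of SEP1, and no source used here says whether the counting kept the strands apart, so the SEP1 level may include reads of its partner.

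These genes moved early. By day 2, PI had made 78.9% of its log2 rise, SEP3 69.1%, AG 65.5%, SEP2 63.5% and SEP1 47.4%, so 4 of the 5 passed 50% against 30 of all 135. Of a list of 17 floral MADS-box genes, 13 of them eligible by level, 5 belonged to the set, 6 met the first step and 10 the second. Over all eligible genes, the background for every list here, 1.02% belonged to the set, 2.5% met the first step and 23.6% the second. The step counts of the lists include listed genes that were not eligible. AP3, the B class partner of PI, met only the first, with 1.31 FPKM at day 0, 202 at day 2 and 173 in the inflorescence. SHP1, SHP2 and STK, which act in carpels and ovules, met only the second. SHP1 read 0.812, 0.975 and 27.5 FPKM in that order. AP1 itself met neither step, at 659, 813 and 151 FPKM. The apex line makes AP1 from a transgene, so the day 0 and day 2 levels of AP1 may include transgene transcript. The share of that transcript was not tested, so the AP1 values cannot be read as the course of the plant's own gene.

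**Figure D2:**
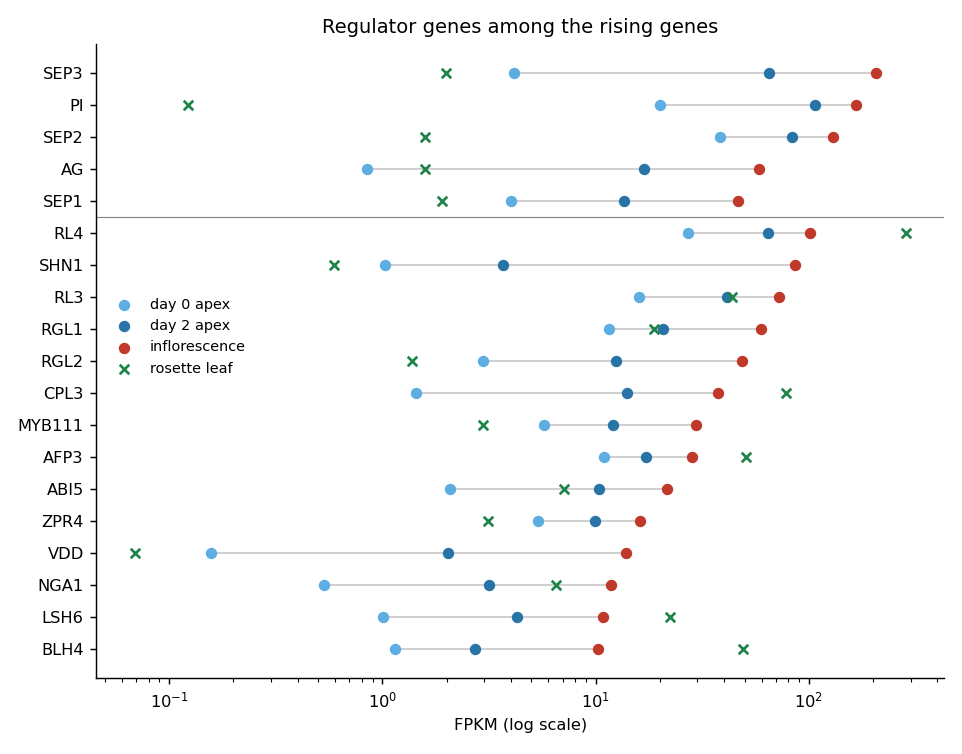
FPKM on a log axis for the 5 floral MADS-box genes and the 14 other regulators, with circles for day 0 apices, day 2 apices and inflorescences, crosses for rosette leaves, and 1 merged value per point. SEP3 lies at 4.14 FPKM at day 0 and 65.2 at day 2, SHN1 lies at 3.67 FPKM at day 2 and 85.7 in inflorescences, and the cross of RL4 lies right of its circles at 285 FPKM.

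Among the other regulators, the order of the steps varied. RGL2 (AT3G03450), a DELLA repressor of gibberellin response, read 2.97 FPKM at day 0, 12.5 at day 2, 48.4 in inflorescences and 1.37 in leaves. Its relative RGL1 read 11.6, 20.8, 59.5 and 18.8 FPKM. Of a list of 23 gibberellin genes, 12 of them eligible, RGL1 and RGL2 were the 2 members of the set and 4 met the first step. Other DELLA genes did not meet it: RGA read 70.5 FPKM at day 0 and 81.9 at day 2, GAI 31.3 and 40.9, and RGL3 6.89 and 6.74. The gibberellin synthesis gene GA3OX1 was high at day 2 alone among the 3 groups used by the choice, at 0.504, 18.2 and 3.92 FPKM.

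CPL3 (AT4G01060), a small R3 MYB protein of epidermal hair patterning, read 1.43 FPKM at day 0, 14.0 at day 2 and 37.4 in the inflorescence. Its leaf level of 78.4 FPKM was the highest of the 4. ABI5, a bZIP factor of abscisic acid response known from seeds, read 2.08, 10.4, 21.6 and, in leaves, 7.09 FPKM. NGA1, a B3-domain factor of style development, read 0.535, 3.16, 11.8 and 6.53 FPKM. It was the single member of the set on a list of 21 carpel, style and ovule regulators. Of that list 8 genes were eligible, 2 met the first step and 11 the second. VDD (VERDANDI), a B3-domain factor of the ovule, read 0.156 FPKM at day 0, 2.04 at day 2 and 13.9 in the inflorescence, against 0.0691 in leaves, with 302 exonic bases under an opposite-strand transcript. MYB111, an activator of flavonol synthesis, read 5.71, 12.1 and 29.4 FPKM, against 2.97 in leaves. With the flavonoid hydroxylase gene TT7 (13.03, 22.5 and 60.7 FPKM) it was 1 of 2 members on a list of 16 flavonoid genes. On that list 7 genes were eligible and 5 met each step.

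Lists of organ growth and anther regulators had no member in the set, but only 8 genes of each list were eligible by level. Since the set holds 1.02% of all eligible genes, lists of this size would usually hold none. Of 20 petal, stamen and sepal growth regulators, 4 met the first step and 11 the second, and none met both. JAG, a promoter of organ growth, read 0.243, 6.57 and 5.58 FPKM. Of 16 anther regulators, 0 met the first step and 9 the second. AMS, a regulator of the tapetum, read 0.273 FPKM at day 0, 0.784 at day 2 and 63.7 in the inflorescence. The 13 shoot meristem genes, of which 5 were eligible, also had no member, with 5 of the 13 meeting the first step and 0 the second.

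Of a list of 29 auxin genes, 21 of them eligible, 4 belonged to the set, 11 met the first step and 11 the second. The members were the Aux/IAA repressor genes IAA1, SHY2 (IAA3) and IAA19 and the auxin exporter gene PIN7. IAA19 read 4.23 FPKM at day 0, 8.60 at day 2, 22.3 in inflorescences and 17.6 in leaves. IAA1 read 6.36, 14.0, 22.1 and 23.3 FPKM. PIN7 read 11.5, 21.1, 33.2 and 41.0 FPKM. SHY2 read 3.63, 6.95, 15.8 and 42.0 FPKM, and 536 of its exonic bases lie under an opposite-strand transcript. For IAA1, SHY2 and PIN7 the leaf was the highest of the 4 groups, for IAA1 only slightly, and the day 0 apex was the lowest for all 4 genes. CKX5, which degrades cytokinin, was also a member, at 2.84 FPKM at day 0, 4.97 at day 2, 10.8 in inflorescences and 15.4 in leaves.

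Cutin is the polyester of the plant surface. SHN1 (AT1G15360), an AP2-domain activator of cutin genes counted above with the regulators, read 1.03 FPKM at day 0, 3.67 at day 2, 85.7 in inflorescences and 0.593 in leaves. GPAT6, the acyltransferase that builds cutin monomers, read 2.71, 4.65, 119.5 and 2.08 FPKM. CYP77A6, a fatty acid hydroxylase of petal cutin, read 5.76, 9.95, 85.1 and 2.15 FPKM. CYP86A4, a related hydroxylase, read 2.83, 5.46, 64.3 and 2.99 FPKM. In each of these the inflorescence stood far above the apices and the leaf.

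The highest lipid member was AT5G33370, a GDSL-type lipase, at 5.95 FPKM at day 0, 34.0 at day 2, 653 in inflorescences and 0.310 in leaves. RXF26, another GDSL-type lipase, read 0.516, 3.95, 96.4 and 0.0661 FPKM. AT2G04570, also of that family, read 5.63, 23.0, 231 and 19.2 FPKM. FOP1, a wax-ester-synthase-like gene needed for petals to slide free in the bud, differed from these in its timing. It read 0.673 FPKM at day 0, 8.45 at day 2 and 19.0 in the inflorescence, against 0.0159 in leaves, and had made 69.8% of its log2 rise by day 2. The median of the 13 lipid genes was 21.3%.

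Of a list of 27 cuticle and epidermis genes, 25 of them eligible, 3 belonged to the set (SHN1, GPAT6 and CYP77A6). These 3 were also all that met the first step, while 15 met the second. Wax genes on the list were already transcribed at day 0 and did not step up by day 2. CER1, of alkane formation, read 66.8, 71.7 and 222 FPKM, and CER6, of fatty acid elongation, read 117, 75.7 and 307 FPKM. SHN3, a relative of SHN1, read 8.27, 6.65 and 21.4 FPKM. Cutin genes on the list also lay outside the set. DCR, an acyltransferase of cutin formation, read 242, 284 and 311 FPKM, CYP86A8 read 17.7, 16.6 and 24.2, and LACS2, an acyl-CoA synthetase, read 39.9, 44.3 and 90.8. The epidermal identity gene ATML1 met neither step, at 56.3, 55.6 and 34.7 FPKM.

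**Figure D3:**
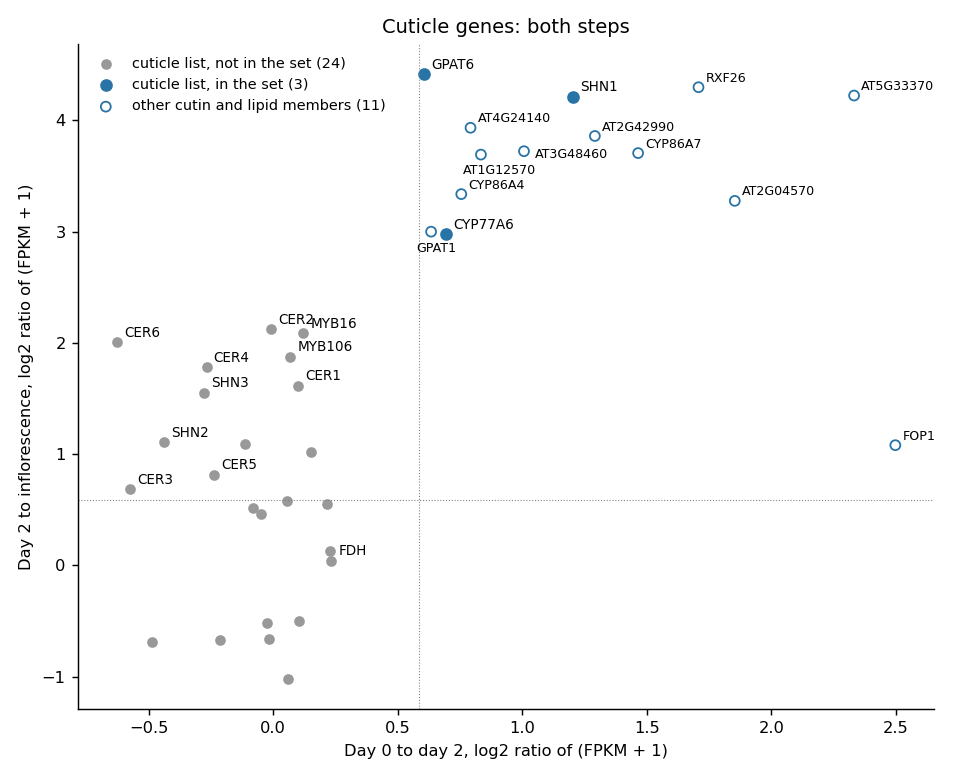
Log2 ratio of inflorescence to day 2 against log2 ratio of day 2 to day 0, both of (FPKM + 1), for the 27 listed cuticle and epidermis genes (filled) and the other cutin and surface lipid members (open), with dotted lines at a ratio of 1.5. Members lie right of the vertical line, and wax genes such as CER1 and CER6 lie left of it and above the horizontal one.

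The small secreted and structural wall proteins had the highest inflorescence levels and the latest rise. Their median levels were 1.20 FPKM at day 0, 2.89 at day 2, 372 in inflorescences and 0.377 in leaves. A median of 14.3% of the log2 rise was reached by day 2. AT2G20870 read 10.6, 74.5, 2241 and 0.698 FPKM, and AT5G22430, of the Ole e 1 and extensin family, read 3.67, 45.9, 822 and 0.236 FPKM. At day 2, AGP21 and PRP4 were the other 2 genes of the group above 10 FPKM, at 144 and 23.1 FPKM. AT5G44540, annotated as a tapetum-specific protein, read 2.54, 8.44, 1041 and 1.79 FPKM, the largest whole rise of the set at 294-fold with 1 added. AT5G07230, of the lipid-transfer protein superfamily, read 1.20, 2.85, 504 and 0.377 FPKM.

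A further 4 members of the lipid-transfer superfamily followed the same course. AT5G62080 read 0.661 FPKM at day 0, 2.40 at day 2 and 372 in the inflorescence. AT3G52130 read 0.684, 2.51 and 329.7 FPKM, with 305 exonic bases under an opposite-strand transcript. AT5G52160 read 0.790, 2.89 and 319 FPKM, and its leaf level was 0.0290 FPKM. With 1 added, its log2 difference, inflorescence minus leaf, was 8.28. AT3G07450 read 0.752, 2.53 and 239 FPKM. Their first steps rest on less than 3 FPKM at day 2. AGP40, a small arabinogalactan protein, read 0.415, 1.34 and 222 FPKM, and the glycine-rich protein gene AT1G27710 read 1.68, 4.86 and 434 FPKM. PRP4 (a proline-rich wall protein) and AGP21 stood apart by their leaf levels of 386 and 149 FPKM, against 476 and 238 in inflorescences. Opposite-strand transcripts cover 415 exonic bases of PRP4 and 364 of the 427 bases of AGP21. The levels of both may therefore include reads of those partners.

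Markers of the tapetum and pollen wall moved with the second step. Of 17 listed genes, all of them eligible by level, all 17 met it, and AT5G07230 alone met the first. Over all eligible genes 23.6% met the second step and 2.5% the first. The list was chosen with earlier results of these data known. At day 2, GRP17 and GRP20, pollen coat proteins, were listed at 0, and LTP12, a tapetal lipid-transfer protein, stood at 0.0218 FPKM. In inflorescences GRP17 reached 738, GRP20 490.1 and LTP12 1138 FPKM. Over the 17 genes the FPKM summed to 38.8 at day 0, 42.8 at day 2, 7937 in inflorescences and 20.2 in leaves. Most of the day 2 sum came from LAP6 at 19.9 and TKPR1 at 15.2 FPKM, which act in sporopollenin synthesis. The part of tapetal or pollen-coat tissue in the second step of the secreted protein genes was not tested.

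The wall enzyme genes were all above leaf in the inflorescence, and 4 of 9 by the 2-fold rule stated below. PME5, a pectin methylesterase, read 70.1 FPKM at day 0, 108 at day 2, 224 in inflorescences and 6.16 in leaves. The expansin gene EXPA8, whose product loosens walls, read 0.258, 1.42, 41.9 and 31.5 FPKM, and EXPA5 read 3.64, 10.3, 40.1 and 26.1 FPKM. TBL26, of a family of polysaccharide acetyltransferases, rose early, at 9.61, 37.4, 71.8 and 55.4 FPKM. ENDO3, a nuclease-family gene that the reference annotation notes as activated by AGAMOUS, read 2.97, 22.0, 74.2 and 0.0490 FPKM. It had made 59.7% of its log2 rise by day 2.

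**Figure D4:**
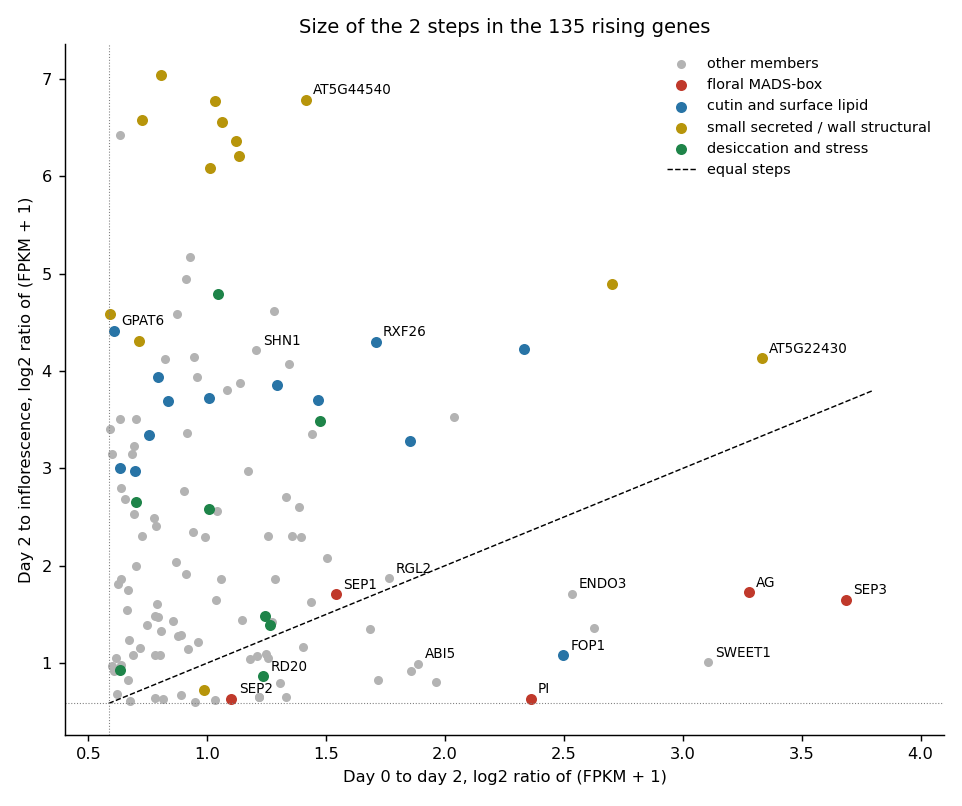
Log2 ratio of inflorescence to day 2 against log2 ratio of day 2 to day 0, both of (FPKM + 1), 1 point per gene, with 4 functional groups in colour, a dashed line of equal steps and dotted lines at a ratio of 1.5. SEP3, AG and PI lie below the dashed line, and most small secreted proteins lie high, up to a 131-fold second step for AT5G07230.

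Leaf values played no part in the choice, but inflorescence values did. Picking genes that step up to the inflorescence favours genes higher there than in leaves, so the shares below are a description. Calls of higher or lower required log2 of (FPKM + 1) to differ by at least 1 between inflorescence and leaf, with 5 FPKM or more in the higher group. By this rule 75 of the 135 genes (55.6%) were higher in inflorescences than in leaves. The same call applied to 20.3% of the eligible genes and 17.1% of the 22289 genes with 1 FPKM or more in any group. Lower in inflorescences than in leaves were 22 genes (16.3%), close to the 16.9% of eligible genes and 18.9% of all expressed genes. Neither call applied to 38 genes. The median log2 difference, inflorescence minus leaf, was 1.58 for the set and -0.02 for eligible genes.

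Leaf levels spanned 0.0159 FPKM (FOP1) to 1883 FPKM (AT1G64370, annotated as a filaggrin-like protein). Under 1 FPKM in leaves were 27 genes (20%), against 4.48% of eligible genes and 15.3% of expressed ones, and 0 were listed at 0. The leaf was the lowest of the 4 groups for 40 genes and the highest for 38, counts for which no share over eligible genes was taken. Day 0 apices were below leaves by the same rule for 72 genes (53.3%, against 23.0% of eligible genes) and above for 9 (6.67%, against 19.5%). At day 2 the set had 51 genes below leaf (37.8%, against 24.3%) and 24 above (17.8%, against 19.6%). The choice also favours genes low at day 0, which bears on the day 0 and day 2 shares.

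**Figure D5:**
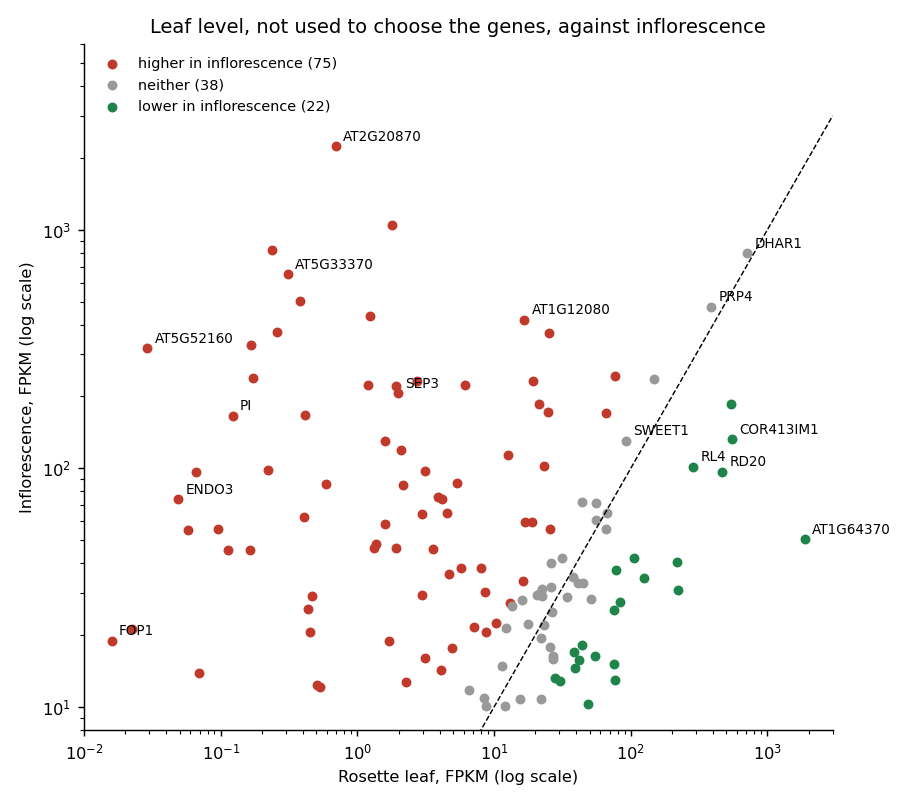
FPKM in inflorescences against FPKM in rosette leaves for the 135 genes on log axes, coloured by call (75 higher, 38 neither, 22 lower in inflorescences), with a dashed line of equal level. AT2G20870, AT5G52160 and PI lie far above the line, and AT1G64370 lies farthest below it.

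Functional groups differed in the leaf, but they were sorted after the values had been seen, so their counts are a description. Over the whole set 55.6% of genes were higher in inflorescences than in leaves and 16.3% were lower. All 5 MADS-box genes, all 13 cutin and surface lipid genes and 11 of 13 secreted protein genes were higher in inflorescences than in leaves, and 0 genes of these 3 groups were lower. Among the other regulators 7 of 14 were higher and 3 lower. The lower ones were CPL3, RL4 (a RADIALIS-like MYB gene, at 101 FPKM in inflorescences and 285 in leaves) and BLH4 (a BELL-type homeobox gene, at 10.3 and 49.0 FPKM). Of 7 auxin and cytokinin genes 1 was higher (AT4G34800, a SAUR gene, at 12.7 FPKM in inflorescences and 2.29 in leaves) and 1 lower (SHY2). Of the 4 transport genes 0 were higher and 3 lower, among them the aquaporin gene PIP2E at 186 FPKM in inflorescences and 544 in leaves. SWEET1, a sugar exporter, was the single member of the set on a list of 14 sugar genes, 10 of them eligible. It read 6.61 FPKM at day 0, 64.5 at day 2, 131 in inflorescences and 91.9 in leaves.

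The desiccation and stress genes, also grouped after their values were seen, had the lowest median log2 difference of the 10 groups. It was -2.15, inflorescence minus leaf. Of the 8 genes in this group 5 were lower in inflorescences and 1 was higher. RD20, a calcium-binding caleosin induced by drought, read 21.8 FPKM at day 0, 52.7 at day 2, 96.8 in inflorescences and 465 in leaves. COR413IM1, a cold-regulated chloroplast membrane protein, read 3.29, 10.9, 132 and 551 FPKM. LEA7, of the late embryogenesis abundant proteins that protect drying cells, read 1.45, 4.80, 15.2 and 75.6 FPKM. These genes rose over both steps without reaching the leaf level. ARGAH2, an arginase of stress and nitrogen metabolism, had a like order at 1.67, 4.36, 31.0 and 222 FPKM. AT3G02480, a small LEA-like protein, was the exception above leaf, at 2.04, 5.27, 172 and 24.96 FPKM. Outside the group, AT1G64370 had the lowest log2 difference of the set, -5.20, with 1.65 FPKM at day 0, 4.00 at day 2, 50.3 in inflorescences and 1883 in leaves.

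Leaf-type transcripts were also higher in inflorescences than at day 2. A list of 26 photosynthesis and plastid genes, all eligible, had 0 members in the set and 0 met the first step, but 26 met the second. Over all eligible genes these shares were 1.02%, 2.5% and 23.6%. Their FPKM summed to 8564 at day 0, 6471 at day 2, 26376 in inflorescences and 51586 in leaves, with RBCS1A entering the leaf sum as 0. The part of green tissue in the second step of members that are high in leaf was not tested. In the first step the sum moved the other way.

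Promoters were read from 250 bases before to 50 bases after the gene start for the 128 protein-coding members, in the RefSeq annotation of assembly TAIR10.1. That assembly is of the Columbia accession, while the plants were Ler. The G-box CACGTG, the core bound by many bZIP and bHLH factors, was present in 19 of 128 promoters (14.8%), against 9.5% of eligible genes and 7.68% of all 27443 protein-coding promoters. It lay in 5 of 8 desiccation and stress promoters and in 0 of 13 cutin ones. The TATA box hexamer TATAAA was in 62.5% against 50.7% and 52.1%. It was counted on either strand and at any position in the window, so a match need not be a working TATA box. Member promoters held fewer G and C bases, with a median of 30.5% against 32% in both backgrounds. The part of base content in the TATAAA share was not tested. Counts of copies on both strands treat the palindromic G-box once. The sequences shown are the G-box windows of the 5 stress genes and of the abscisic acid regulator gene ABI5, which holds 3 copies, each read along the gene's own strand with the motif in capitals.
RD20 (chr2:14146593-14146648, minus strand): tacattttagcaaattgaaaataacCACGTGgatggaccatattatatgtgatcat
LEA7 (chr1:19619481-19619536, plus strand): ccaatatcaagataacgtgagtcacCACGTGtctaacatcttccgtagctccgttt
AT3G02480 (chr3:512159-512214, plus strand): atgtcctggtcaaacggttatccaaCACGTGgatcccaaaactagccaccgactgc
COR413IM1 (chr1:10289667-10289705, minus strand): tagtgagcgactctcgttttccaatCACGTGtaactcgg
DHAR1 (chr1:6774524-6774579, minus strand): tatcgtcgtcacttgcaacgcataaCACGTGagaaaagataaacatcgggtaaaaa
ABI5 (chr2:15207695-15207807, minus strand): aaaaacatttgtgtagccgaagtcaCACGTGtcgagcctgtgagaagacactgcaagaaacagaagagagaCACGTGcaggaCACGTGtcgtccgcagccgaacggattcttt

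The copies shown, those before the start, began 68 bases before the start in RD20, 218 in LEA7, 36 in AT3G02480, 14 in COR413IM1 and 31 in DHAR1. Within the 50 bases after the start, RD20 held 1 more copy and AT3G02480 held 2 more. AFP3, which encodes an ABI5-binding protein, held 4 copies before the start and 1 after it. ATOEP16-2, of the group with varied or unknown roles, also held 4 copies before the start. In that group 7 of 52 promoters held the motif. AFP3 transcripts read 10.9 FPKM at day 0, 17.3 at day 2, 28.3 in inflorescences and 50.9 in leaves. A match is a run of letters and not evidence of binding.

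Shares of motifs of floral and epidermal factors lay closer to the background. The CArG box, the MADS-domain binding motif, was in 4 promoters (3.12%, against 3.41% of eligible genes). It was in 0 of the 5 MADS-box ones, but at such shares 5 promoters would usually hold none. Sequence outside the window, such as introns further in, was not searched. CCANTG, a core bound by LEAFY, was in 28.1% against 26.1%. The L1 box of epidermal genes, searched as TAAATGCA or TAAATGTA, was in 8 (6.25%, against 5.0%). Of the 13 cutin and surface lipid promoters 2 held it, and they are shown because these genes act at the surface, with the motif or its reverse complement in capitals.
AT5G33370 (chr5:12604874-12604931, minus strand): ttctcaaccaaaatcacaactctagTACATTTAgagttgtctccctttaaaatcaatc
AT1G12570 (chr1:4281234-4281291, minus strand): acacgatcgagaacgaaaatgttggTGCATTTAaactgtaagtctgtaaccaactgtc

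Several families were represented more than once. Of the eligible genes of each family, the set held 5 of 36 GDSL-type lipases (13.9%), 5 of 36 lipid-transfer proteins (13.9%), 5 of 26 MADS-box factors (19.2%) and 3 of 14 Aux/IAA repressors (21.4%), against 1.02% of all eligible genes. These families were picked because members had been seen in the set. They do not show what the choice would give for families picked otherwise. Members coded for short proteins more often than eligible genes, with a coding length under 600 bases in 34.4% against 19.5%, and a single exon in 22.7% against 10.4%. The median coding length was 819 bases against 1098.

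Members lay on all 5 chromosomes, with 42, 18, 25, 23 and 27 on chromosomes 1 to 5. These were 0.871% to 1.22% of the eligible genes of a chromosome. Direct neighbours were few. AT1G15350 lies beside SHN1, with 3279 bases between them, MBP2 beside MBP1 with 1225 bases, and AT4G24130 beside AT4G24140 with 1174 bases. AT1G15350 read 76.2 FPKM in leaves and 13.02 in inflorescences, the reverse of its neighbour SHN1. The myrosinase-binding protein genes MBP2 and MBP1 read 233 and 171 FPKM in inflorescences, and 2.72 and 66.1 in leaves.

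Of the 135, 128 are annotated as protein coding and 7 are not. The latter include a tRNA gene (AT1G70050, at 19.9, 46.0 and 369 FPKM) and a snoRNA gene (AT3G13525, at 8.41, 17.2 and 26.6 FPKM), which are not usually polyadenylated. Exons of 22 members overlap another gene, in 2 cases on the same strand (AT5G33370 and CKX5). More than 10% of the 50-base words of DHAR1 (15.4%) and AT3G55290 (34.4%) occur elsewhere in the genome, so their reads could be divided with copies.

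Near the thresholds the choice is a matter of small differences. Just inside the first step were AT1G52618, AT3G49270 and ATOEP16-2, each at a ratio of 1.51, and just outside were BAG3 at 1.49 and AT5G53050 and UMAMIT30 at 1.47. For the second step AT3G13525 and MGL were inside at 1.52 and IAA1 at 1.53, with AT4G21910 outside at 1.498 and AT2G44300 and AT5G61820 at 1.49. For the inflorescence level OLEO4 and AT2G32430 were inside at 10.1 FPKM and BLH4 at 10.3 FPKM. Outside were AT3G05980 at 9.9996, CLE19 at 9.89 and ChlAKR at 9.75 FPKM.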

How the data were processed

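RNA was sequenced by the submitters with a strand-marking poly(A) kit and 50-cycle reads, per the labels' protocols. The deposited table gives 1 merged FPKM value per gene and group. FPKM was inferred from the values and from Cufflinks in the submitters' processing notes, which name CASAVA 1.8.2, Bowtie2 2.1.0, TopHat2 2.0.10, Cufflinks 2.1.1 and build TAIR10. The sources used here do not state how the authors merged libraries, or the annotation and strand setting. The replicate-based test in the planned design could not be run, and a rule of size was used.

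Rows of the 567 repeated identifiers (34133 rows, 33559 identifiers) were summed, and 1 was added before ratios were taken, which understates changes of low genes. Scripts used Python 3.11.15, pandas 2.3.3 and matplotlib 3.10.9. RefSeq TAIR10.1 supplied names, lengths and promoters, and all 135 members matched by locus identifier. Genes were not placed by coordinates of the authors' build.

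Members and lists were chosen with earlier results of these data known. Named were list members, the 15 with the largest whole rise, the 10 highest and 10 lowest in leaf relative to the inflorescence, the 10 highest in inflorescences, the 3 nearest each threshold on either side, and list genes that missed, with symbol-less genes optional beyond the first 3 of each ranking. Functional groups, families and other named genes were chosen after their values were seen. Alternatives changed the added value, steps, minima, leaf rule and scaling between groups.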

Additional observations from a re-analysis of the deposited data

How the results depend on the processing

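The main counts were 135 members, 75 higher and 22 lower in inflorescences than in leaves, 27 under 1 FPKM in leaves and 30 with more than 50% of the log2 rise by day 2. Adding 0.1 in place of 1 gave 236 members, with 144 higher, 36 lower and 75 under 1 FPKM in leaves. Adding 5 gave 57 members, with 30, 9 and 8 in that order and 16 past 50% by day 2. Requiring steps of 2 gave 54 members (35, 9, 15 and 12), and steps of 1.3 gave 259 (128, 50, 45 and 55). The count lower than in leaves was 34 with an inflorescence minimum of 5 FPKM, 12 with 20 FPKM and 8 with a log2 difference of 2. That count was added after seeing the data. With day 0 of at least 1 FPKM, 12 were under 1 FPKM in leaves. The log2 difference of 2 tightened the call on the same 135 members, and the other settings admitted more or fewer genes. The share higher than leaf stayed between 49.4% and 64.8% over these changes of added value and step size. Scaling groups to an equal upper quartile gave 143 members, of which 133 were among the 135. Of 57 values compared over 12 alternatives (restricting the set to protein-coding members and to members without overlap or repeats were added after seeing the data), 34 stayed within 1.5 times the main count. Under all 9 planned settings of the rule, 22 members were kept. Depth limits the low values most, since 34 members stood under 1 FPKM at day 0 and no read counts were used. No paired analysis was possible because each group has a single merged value, and for the same reason leaving out each replicate was not run.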
